A study of Mus musculus with 4 samples.

Results

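This account covers 10 genes of the TGF-β and activin pathway, taken by gene symbol from a table of 26809 uniquely named entries of the series, of which 13509 reached at least 1 TPM (transcript abundance normalised for gene length and depth) in at least 1 library. The 10 genes encode the type I receptors Tgfbr1, Acvr1b and Acvrl1, the type II receptors Tgfbr2, Acvr2a and Acvr2b, the co-receptors Tgfbr3 and Eng, the activin subunit Inhba and the activin antagonist Fst. All 10 passed the minimum of 1 TPM in at least 1 library, and each had at least 4 reads in every library. RNA came from mouse embryonic fibroblasts of C57BL/6 background on day 5 of reprogramming. All groups received SeVdp(KOSMaB), built on Sendai virus and delivering Klf4, Oct4, Sox2 and Myc, under selection with blasticidin. The groups were Osr2 cells with 10 µM SB431542, Osr2 cells without it, control cells with 10 µM SB431542 and control cells without it. Osr2 cells expressed the zinc-finger transcription factor Osr2, and control cells expressed Kusabira Orange, a fluorescent protein. Each group is 1 library, so there is no estimate of spread between cultures, no gene was tested, and differences are described by their size.

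TGF-β binds the type II receptor Tgfbr2, which then phosphorylates the type I receptor Tgfbr1, and this kinase passes the signal to Smad2 and Smad3. Activin, a dimer of subunits such as the one encoded by Inhba, signals through Acvr2a or Acvr2b together with Acvr1b to the same Smads. Follistatin, encoded by Fst, binds activin in the extracellular space and keeps it from its receptors. In fibroblasts this pathway is known for driving matrix synthesis, and inhibitors of its type I kinases are widely used to aid reprogramming to pluripotency.

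SB431542 competes with ATP in the kinases encoded by Tgfbr1 and Acvr1b and spares that of Acvrl1. The coding stretches below, 57 bases each from the GENCODE M21 transcripts, show the members at the ATP pocket, with the codon of the gatekeeper residue in capitals. It was a serine codon in Tgfbr1 and Acvr1b and a threonine codon in Acvrl1.
Tgfbr1 (chromosome 4): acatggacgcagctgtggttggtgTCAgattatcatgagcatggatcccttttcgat
Acvr1b (chromosome 15): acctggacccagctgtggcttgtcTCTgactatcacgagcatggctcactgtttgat
Acvrl1 (chromosome 15): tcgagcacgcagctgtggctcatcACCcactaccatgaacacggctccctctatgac
Over these 57 bases Tgfbr1 and Acvr1b shared 78.9%, Tgfbr1 and Acvrl1 64.9%, and Acvr1b and Acvrl1 68.4%.

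The libraries differed in depth and make-up in ways that touch each value below. Reads recovered from the TPM steps came to 1652307 in Osr2 cells with SB431542, 14436289 in Osr2 cells without it, 13353335 in control cells with it and 18275917 in control cells without it. The deposited TPM columns summed to 96038, 270168, 452145 and 345864 in the same order of libraries, not to a common total. Mitochondrially encoded genes took 15.1% of reads in Osr2 cells with SB431542 and 2.42% in Osr2 cells without it, against 0.694% in control cells with it and 1.74% in control cells without it. In the Osr2 library with SB431542, 198 of 9225 genes had 0 reads although at least 20 would follow from their level in control cells with SB431542, against 0 such genes in that control library thinned to the same depth. This comparison cannot tell genes lost from the library from genes not expressed in Osr2 cells. In TPM as deposited, the median gene shifted, on the log2 scale, by −3.51 in Osr2 against control cells with SB431542 and −0.80 without it. With SB431542 against none it shifted by −2.25 in Osr2 cells and by 0.46 in control cells. Differences are therefore given on log2(TPM + 1) relative to the median gene, and a gene is called higher or lower where that difference is at least 1 in size. Within each kind of cell, 0 entries had more reads with SB431542 than without it, so the untreated column may hold the treated reads. Values after read subtraction take the treated reads from the untreated column of the same cells before scaling. Fold values compare reads, scaled to the median gene and without a pseudocount. Their 95% intervals, and those of ratios, cover counting error only. They take no account of the genes at 0 reads in the Osr2 library with SB431542.

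The labels were checked against Osr2 itself and against marker genes. Osr2 stood at 13.7 TPM in Osr2 cells with SB431542 and 59.1 TPM in Osr2 cells without it, against 0.764 TPM in control cells with SB431542 and 0.890 TPM in control cells without it. Of 11 fibroblast markers, 6 reached 1 TPM in Osr2 cells with SB431542, 10 in Osr2 cells without it, 9 in control cells with it and 9 in control cells without it. Their summed TPM as deposited was 384, 7855, 614 and 973 in the same order of libraries, and Lum was at 0 in the first of these. Relative to the median gene, the scale on which members are called, the fibroblast sum was 3184, 13668, 445 and 973. With SB431542 this sum was thus lower in Osr2 than in control cells as deposited and higher relative to the median gene. Its largest part was the collagen gene Col1a1, at 284, 4616, 280 and 522 TPM as deposited. With SB431542, relative to the median gene, Col1a1 (3.53), Col1a2 (2.74), Col3a1 (1.86) and Thy1 (1.05) were higher in Osr2 cells. Pdgfra, Prrx1 and Pdgfrb lay between 0.35 and 0.76, while Dcn (−1.46), Lum (−0.71), Fap (−0.33) and Twist2 (−0.16) lay below 0. The sum thus mainly follows collagen genes. For 5 mural cell markers the sum was 13.5, 439, 44.0 and 47.4 TPM as deposited, with 4, 4, 3 and 4 of them at 1 TPM, and 112, 764, 32.0 and 47.4 relative to the median gene. Acta2 alone held 8.73, 394, 27.7 and 32.6 TPM of the mural sums as deposited. For 9 macrophage markers the sum was 18.2, 54.9, 21.7 and 16.3 TPM as deposited, with 4, 8, 5 and 5 at 1 TPM, and 151, 95.5, 15.7 and 16.3 relative to the median gene. The sums of further lists, of pluripotent and epithelial cells, were lowest in Osr2 cells without SB431542 relative to the median gene, as Acvr2b was. For 9 pluripotency markers the sum was 15.6, 8.77, 171 and 126 TPM as deposited, with 2, 2, 4 and 4 at 1 TPM, and 129, 15.3, 124 and 126 relative to the median gene. The largest part of it was Nr0b1, at 9.28, 4.14, 92.2 and 67.3 TPM as deposited. Nanog had 0, 13, 1 and 4 reads, and Esrrb, Zfp42 and Dppa5a had at most 3 reads in any library. For 8 epithelial markers the sum was 1.89, 2.81, 26.3 and 21.1 TPM as deposited, with 0, 1, 5 and 5 at 1 TPM, and 15.7, 4.89, 19.1 and 21.1 relative to the median gene. In Osr2 against control cells without SB431542, Nanog (0.62), Utf1 (0.56) and the epithelial Krt18 (0.64) lay above 0, unlike the sums, on at most 15 reads. The part of these cell types in the members' differences was not tested. Acvrl1 and Eng are known best from endothelium, so 9 endothelial markers were listed as well. Their summed TPM was 1.11 in Osr2 cells with SB431542, 6.20 in Osr2 cells without it, 18.8 in control cells with it and 12.2 in control cells without it, with 0, 1, 3 and 2 of them at 1 TPM. Relative to the median gene it was 9.22, 10.8, 13.6 and 12.2. The defining endothelial markers Cdh5 and Emcn were at 0 in all 4 libraries, and Pecam1 had 0, 2, 12 and 18 reads in that order. In bulk RNA, fewer cells of a type and less RNA per cell cannot be told apart.

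**Figure D1:**
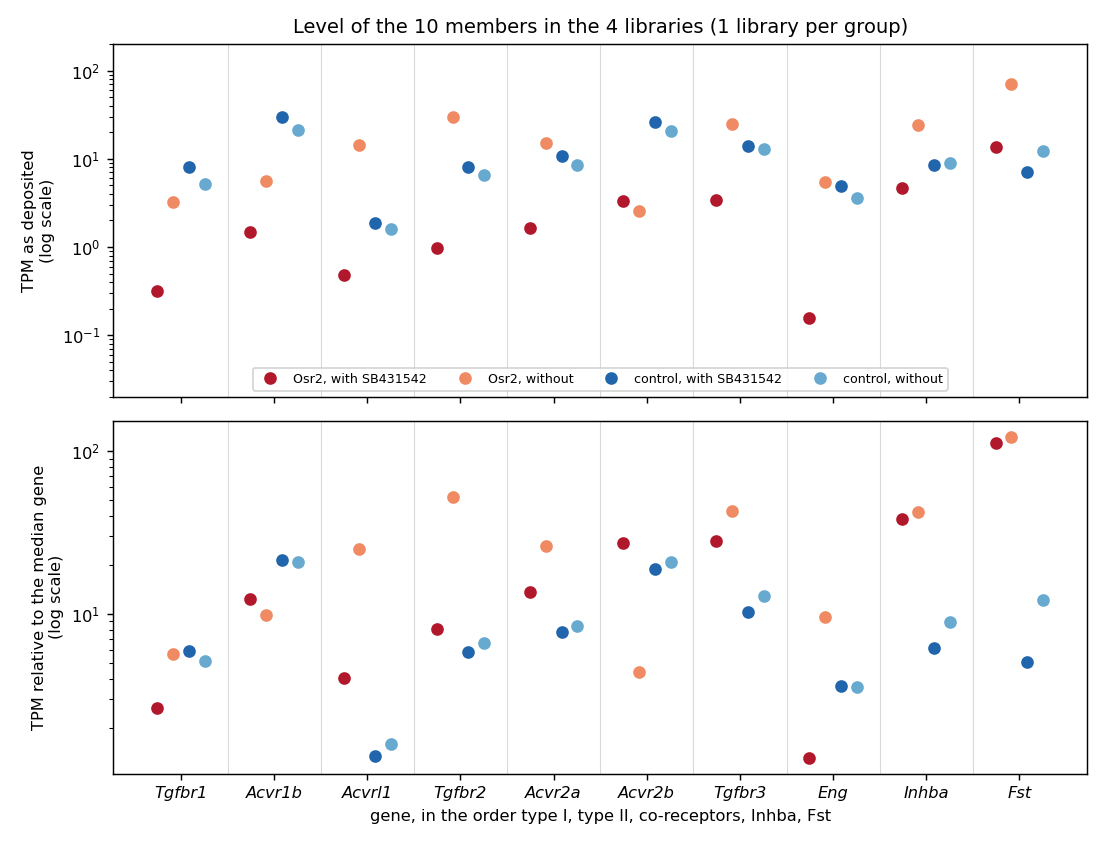
Level of each member in each library, on a log axis, as TPM as deposited (upper panel) and as TPM relative to the median gene (lower panel). Each point is 1 library. Fst, Inhba, Tgfbr2 and Acvrl1 stood highest in Osr2 cells without SB431542 on both scales, at 70.5, 24.5, 30.1 and 14.3 TPM.

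The first comparison asks how the genes for receiving TGF-β and activin signals differed when Osr2 was expressed without the inhibitor. Of the 10 genes, 7 were higher in Osr2 cells, 2 were lower and 1 was neither, where 16.6% of all measured genes were higher and 11.4% lower. The receptors did not move as a block. The type II receptors Tgfbr2 and Acvr2a, Acvrl1, both co-receptors, the activin subunit and follistatin were higher, while the activin receptors Acvr1b and Acvr2b were lower. The members' median difference was 1.60, against −0.02 over all measured genes. On TPM as deposited 4 genes were higher and 2 lower, where 7.78% and 30.6% of genes were, and after read subtraction 6 were higher and 2 lower, where 17.4% and 12% of genes were.

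Among the type I receptors, Tgfbr1 (GRCm38 chromosome 4, 47353222 to 47414931, plus strand), the kinase activated by Tgfbr2, was close to the median gene. It stood at 3.26 TPM (299 reads) in Osr2 cells and 5.14 TPM (490 reads) in control cells, a difference of 0.12, or a ratio of 1.10 (0.952 to 1.28). After read subtraction its ratio was 2.02 (1.54 to 2.67), since its 422 reads in control cells with SB431542 came to 86.1% of the 490 without it. The size of its difference thus depends on that choice. Acvr1b (chromosome 15, 101174067 to 101213684, plus strand), the activin type I receptor, stood at 5.66 TPM (351 reads) in Osr2 cells and 21.0 TPM (1353 reads) in control cells. This was a difference of −1.02, just inside the limit for a call, or 2.13-fold lower (1.89 to 2.40), and after read subtraction the difference was again −1.02. Acvrl1 (chromosome 15, 101128522 to 101145336, plus strand), whose kinase acts on Smad1 and Smad5, stood at 14.3 TPM (858 reads) in Osr2 cells and 1.59 TPM (99 reads) in control cells. With a difference of 3.32, or 15.7-fold higher (12.7 to 19.5), it had the largest difference of the 10 genes relative to the median gene. As deposited and after read subtraction Acvr2b was larger in size (−2.62 and −3.15, against 2.57 and 2.97 for Acvrl1), and with a pseudocount of 5 Fst was (2.89, against 2.18).

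Of the type II receptors, Tgfbr2 (chromosome 9, 116084293 to 116175360, minus strand), which binds TGF-β, stood at 30.1 TPM (3458 reads) in Osr2 cells and 6.63 TPM (791 reads) in control cells. It was 7.91-fold higher (7.32 to 8.55), with a difference of 2.81, or 2.48 after read subtraction. The pair of activin type II receptors, which bind the same ligands, went opposite ways. Acvr2a (chromosome 2, 48814109 to 48903269, plus strand) stood at 15.1 TPM (1207 reads) in Osr2 cells and 8.43 TPM (699 reads) in control cells, 3.12-fold higher (2.84 to 3.43) with a difference of 1.53. Acvr2b (chromosome 9, 119402118 to 119434995, plus strand) stood at 2.54 TPM (140 reads) in Osr2 cells and 20.8 TPM (1191 reads) in control cells, 4.70-fold lower (3.95 to 5.65) with a difference of −2.01. Osr2 cells with SB431542 had 81 Acvr2b reads, so read subtraction left 59 of the 140 and gave a difference of −3.15. The summed pluripotency and epithelial markers, relative to the median gene, were 15.3 and 4.89 in Osr2 cells, against 126 and 21.1 in control cells, and their part in the Acvr2b difference was not tested. The direction of both activin type II receptors was the same on TPM as deposited, at 0.77 for Acvr2a and −2.62 for Acvr2b.

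Both co-receptors were higher. Tgfbr3 (chromosome 5, 107106570 to 107289629, minus strand), or betaglycan, presents TGF-β to Tgfbr2 and also binds inhibins. It stood at 24.8 TPM (2277 reads) in Osr2 cells and 12.9 TPM (1234 reads) in control cells, 3.34-fold higher (3.11 to 3.58) with a difference of 1.66, which after read subtraction was 0.99, just outside the limit for a call. Eng (chromosome 2, 32646595 to 32682669, plus strand), or endoglin, is the co-receptor that works with Acvrl1. It stood at 5.49 TPM (312 reads) in Osr2 cells and 3.56 TPM (210 reads) in control cells, 2.69-fold higher (2.25 to 3.22) with a difference of 1.21. Both Acvrl1 and Eng were thus higher in Osr2 cells relative to the median gene. On that scale the summed endothelial markers were 10.8 in Osr2 cells and 12.2 in control cells, and their part in the result was not tested.

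Inhba (chromosome 13, 16011851 to 16031621, plus strand) encodes the βA subunit, whose dimer is activin A. It stood at 24.5 TPM (2192 reads) in Osr2 cells and 8.96 TPM (835 reads) in control cells, 4.75-fold higher (4.38 to 5.15) with a difference of 2.13. Its antagonist Fst (chromosome 13, 114452290 to 114458951, minus strand) stood at 70.5 TPM (4537 reads) in Osr2 cells and 12.2 TPM (817 reads) in control cells, 10.0-fold higher (9.32 to 10.8) with a difference of 3.23. After read subtraction the differences were 1.20 for Inhba and 1.79 for Fst. Ligand subunit and antagonist were thus higher together on each of the 3 scales, with differences of 1.35 and 2.44 on TPM as deposited.

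Promoter sequences from RefSeq (GRCm38.p6) were on hand for 7 of the 10 genes, and 4 are shown because their genes differed most in opposite directions with Osr2 among those 7. Motifs were searched in the 250 bases before the RefSeq start, and each line gives those of them that lie before the GENCODE gene, 5′ to 3′ on the gene's strand. Capitals mark CAGAC, the core bound by Smad proteins, and GGGCGG, the GC box bound by Sp1, on either strand, where matches to GGGCGG may overlap.
Tgfbr2, higher, chr9:116175364-116175613, minus strand: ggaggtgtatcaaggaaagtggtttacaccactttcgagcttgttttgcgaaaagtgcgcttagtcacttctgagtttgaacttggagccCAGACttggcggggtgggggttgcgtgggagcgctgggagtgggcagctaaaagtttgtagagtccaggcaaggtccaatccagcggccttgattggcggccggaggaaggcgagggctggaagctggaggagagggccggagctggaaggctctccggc
Inhba, higher, chr13:16011601-16011850, plus strand: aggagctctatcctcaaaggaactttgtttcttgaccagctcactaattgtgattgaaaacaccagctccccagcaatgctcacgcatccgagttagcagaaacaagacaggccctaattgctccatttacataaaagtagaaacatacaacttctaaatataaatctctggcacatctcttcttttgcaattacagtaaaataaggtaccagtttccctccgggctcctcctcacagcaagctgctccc
Acvr1b, lower, chr15:101173822-101174066, plus strand: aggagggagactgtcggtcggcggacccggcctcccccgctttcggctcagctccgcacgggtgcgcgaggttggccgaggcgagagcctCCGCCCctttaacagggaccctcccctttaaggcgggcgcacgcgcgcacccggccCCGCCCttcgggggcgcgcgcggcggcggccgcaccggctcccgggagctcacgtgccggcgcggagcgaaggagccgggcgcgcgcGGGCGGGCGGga
Acvr2b, lower, chr9:119401928-119402117, plus strand: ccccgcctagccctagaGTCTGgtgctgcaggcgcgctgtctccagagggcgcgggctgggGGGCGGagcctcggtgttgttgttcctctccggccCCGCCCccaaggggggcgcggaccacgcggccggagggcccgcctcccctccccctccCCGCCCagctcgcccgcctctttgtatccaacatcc
The GC box was found 0 times before Tgfbr2 and Inhba, and 4 times before Acvr1b and 3 times before Acvr2b, where 32.7% of 32851 promoters of the same length hold it. The GC content of these windows was 78.8% and 72.8% in Acvr1b and Acvr2b, against 58.4% in Tgfbr2 and 43.2% in Inhba, with a median of 52.4% over all promoters. This split does not extend to the other genes, since Acvr2a, which was higher, has 2 GC boxes and a GC content of 82.0%. CAGAC was found 1 time each before Tgfbr2 and Acvr2b and 0 times before Inhba and Acvr1b, against 42.2% of promoters. The AP-1 site TGANTCA (6.75% of promoters) and the cAMP response element TGACGTCA (1.55%) were found 0 times in these 4 windows. A match is a description of letters and not a binding site.

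**Figure D2:**
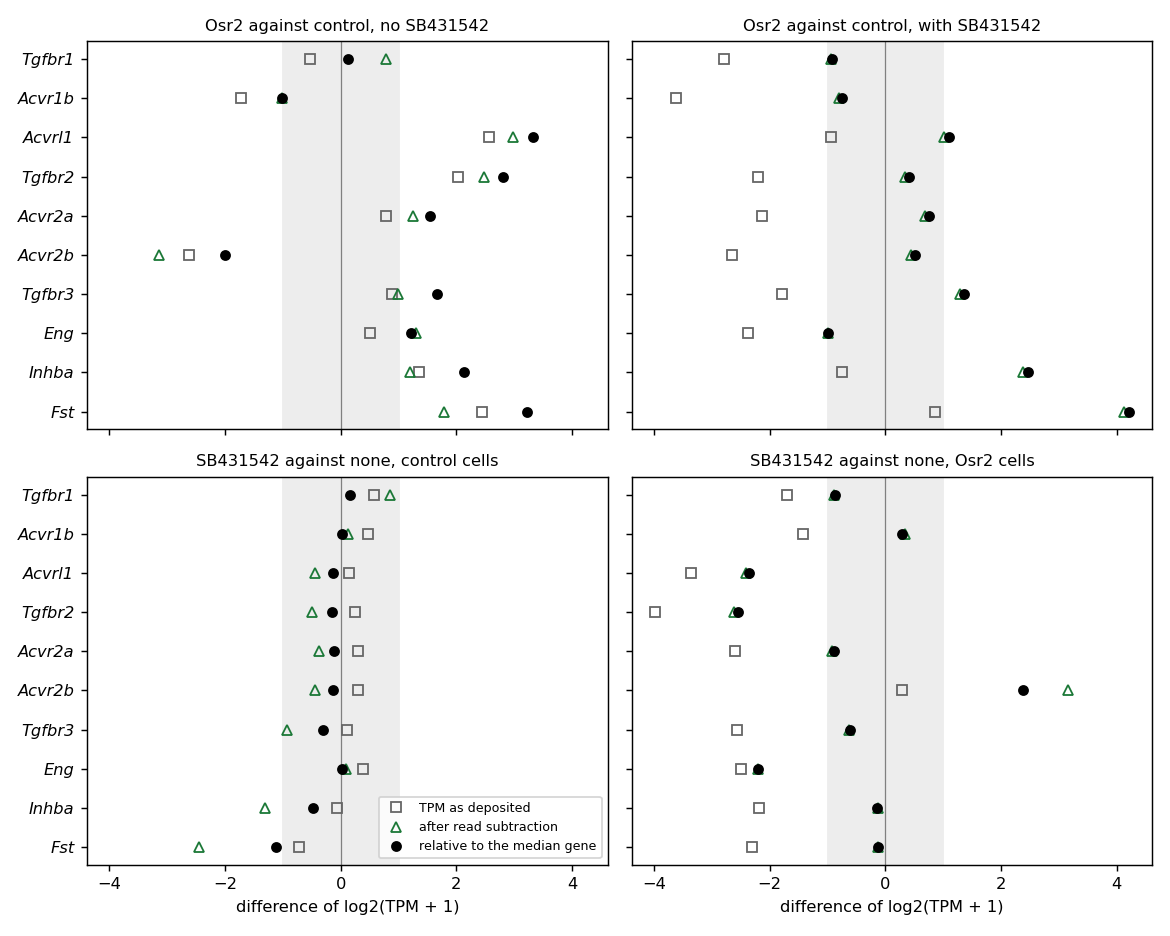
Difference of log2(TPM + 1) for the 10 members in the 4 comparisons, relative to the median gene (filled circles), on TPM as deposited (squares) and after read subtraction (triangles); the grey band spans −1 to 1, within which a gene is called neither. Without SB431542, Acvrl1 (3.32), Fst (3.23) and Tgfbr2 (2.81) lie far right and Acvr2b (−2.01) far left, while with SB431542 Fst (4.21), Inhba (2.46), Tgfbr3 (1.37) and Acvrl1 (1.10) lie right of the band.

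The second comparison puts this question to cells treated with SB431542. Here 4 of the 10 genes were higher in Osr2 cells, 0 were lower and 6 were neither, where 19.9% of measured genes were higher and 27.9% lower. Follistatin, the activin subunit, betaglycan and Acvrl1 were the higher genes. On TPM as deposited, where 88.1% of all genes were lower and 0.348% higher, 0 members were higher and 7 lower. After read subtraction 4 were higher and 0 lower, where 18.7% and 27.5% of genes were. The members' median was 0.64 relative to the median gene, against −0.21 over all measured genes.

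Fst stood at 13.5 TPM (387 reads) in Osr2 cells and 7.02 TPM (256 reads) in control cells, a difference of 4.21, or 21.9-fold higher (18.7 to 25.8). It is the member with the largest difference in this comparison, and it was also above 0 on TPM as deposited, at 0.85. Inhba stood at 4.63 TPM (185 reads) in Osr2 cells and 8.49 TPM (431 reads) in control cells, 6.22-fold higher (5.21 to 7.41) relative to the median gene with a difference of 2.46, against −0.75 as deposited. The direction given for Inhba thus rests on the scaling to the median gene.

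Tgfbr3 stood at 3.37 TPM (138 reads) in Osr2 cells and 14.1 TPM (732 reads) in control cells, 2.73-fold higher (2.26 to 3.28) with a difference of 1.37, against −1.79 as deposited. Acvrl1 had 13 reads (0.487 TPM) in Osr2 cells and 63 reads (1.86 TPM) in control cells, 2.99-fold higher (1.51 to 5.49) with a difference of 1.10, against −0.94 as deposited. With the median taken over genes averaging 50 TPM or more Acvrl1 stood at 0.95, and with a pseudocount of 5 at 0.51, and was not called. Both were called on counts far lower than without the inhibitor, and the interval of Acvrl1 reaches down to 1.51-fold.

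The remaining receptors were called neither. Tgfbr2 stood at 0.976 TPM (50 reads) in Osr2 cells and 8.07 TPM (525 reads) in control cells, with a difference of 0.41 and a ratio of 1.38 (1.01 to 1.85). Acvr2a differed by 0.76, with 59 reads in Osr2 cells and 480 in control cells, and Acvr2b by 0.51, with 81 and 810 reads. The gap between these activin type II receptors seen without the inhibitor, 1.53 against −2.01, was thus 0.76 against 0.51 here. The targets of SB431542 lay below 0, with Tgfbr1 at −0.92 (13 reads in Osr2 cells and 422 in control cells) and Acvr1b at −0.75 (41 and 1033 reads). Eng had 4 reads in Osr2 cells and 160 in control cells, and its difference of −0.998 lies just outside the limit for a call with an interval of 1.06 to 10.3-fold lower.

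The third comparison asks what differed with SB431542 in Osr2 cells. The TGF-β receptor Tgfbr2, Acvrl1 and endoglin were lower, Acvr2b was higher, and follistatin and the activin subunit stayed near the median gene. In counts, 1 of 10 was higher, 3 were lower and 6 were neither, where 16.5% of measured genes were higher and 26.7% lower. The counts of higher and lower members were thus near the shares over all genes. On TPM as deposited 9 were lower and 0 higher, where 64.1% of genes were lower and 0.118% higher. After read subtraction 3 were lower and 1 higher, where 26.8% and 18.9% of genes were.

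Tgfbr2 fell to 0.976 TPM (50 reads) with SB431542, against 30.1 TPM (3458 reads) without it, a difference of −2.55. After read subtraction it was 6.92-fold lower (5.24 to 9.34) relative to the median gene. Acvrl1 had 13 reads with SB431542 and 858 without it, a difference of −2.37, and Eng had 4 and 312 reads, a difference of −2.19. After read subtraction Acvrl1 was 6.60-fold lower (3.84 to 12.4) and Eng 7.82-fold lower (3.02 to 28.9), with intervals widened by the few treated reads.

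Acvr2b stood at 3.30 TPM (81 reads) with SB431542 and 2.54 TPM (140 reads) without it. The difference was 2.38 relative to the median gene, and after read subtraction it was 13.5-fold higher (9.55 to 19.2), while on TPM as deposited the difference was 0.28. As deposited, it was the single member at a higher TPM with the inhibitor in Osr2 cells. Its treated reads amounted to 57.9% of its untreated reads, against 1.28% to 11.7% for the other 9 genes.

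Fst stood at 13.5 TPM with SB431542 and 70.5 TPM without it in Osr2 cells, and Inhba at 4.63 and 24.5 TPM, which gives differences of −0.13 and −0.15 relative to the median gene. After read subtraction the ratios, scaled to the median gene, were 0.918 (0.825 to 1.02) for Fst and 0.908 (0.777 to 1.06) for Inhba. Of the targets, Tgfbr1 had 13 reads with SB431542 and 299 without it, a difference of −0.88. Acvr1b had 41 and 351 reads, a difference of 0.29. Acvr2a differed by −0.89 and Tgfbr3 by −0.61.

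The fourth comparison asks the same of control cells, and here the members stayed close to the median gene apart from follistatin. Fst was lower, at 7.02 TPM (256 reads) with SB431542 and 12.2 TPM (817 reads) without it, a difference of −1.12. The other 9 genes were neither, where 0% of all measured genes were higher and 0.577% lower. A call of higher was not possible here, since 0 entries had more reads with SB431542 than without it. In TPM, 1 read with it counted for 1.84 times 1 read without it, and scaling divided this by 1.38. The 0% was thus fixed in advance. On TPM as deposited 0 members were lower, where 0.341% of genes were. Inhba came next at −0.48, with 8.49 TPM (431 reads) with SB431542 and 8.96 TPM (835 reads) without it. Only those 2 members were lower in TPM as deposited.

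If the untreated column does hold the treated reads, these differences are understated. After read subtraction, 561 of the 817 Fst reads and 404 of the 835 Inhba reads remained in the untreated column. Fst was then 6.43-fold lower with SB431542 (5.54 to 7.49), a difference of −2.45, and Inhba 2.75-fold lower (2.40 to 3.16), a difference of −1.31. On that scale 2 of 10 members were lower and 0 higher, where 6.38% of genes were lower and 10% higher. Tgfbr3 differed by −0.94 and Tgfbr1 by 0.84, and the other 6 genes lay between −0.49 and 0.13.

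The first and the third comparison both use the Osr2 library without SB431542, and the other comparisons share libraries likewise, so agreement between them is no separate evidence. Side by side, the SB431542 difference was −0.13 in Osr2 cells and −1.12 in control cells for Fst, and −2.55 and −0.15 for Tgfbr2. Treated reads came to 11.4% of untreated reads in Osr2 cells and 73.1% in control cells. If the untreated columns hold them, the differences in the 2 kinds of cell are not on a like scale. After read subtraction they were −0.12 and −2.45 for Fst, and −2.63 and −0.49 for Tgfbr2. The difference between such pairs was not tested, since each group is 1 library.

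Ratios of members within a library do not depend on how libraries are scaled to each other. In Osr2 cells without SB431542 the type II receptor Tgfbr2 stood at 9.23 times the TPM of the type I receptor Tgfbr1 (8.20 to 10.4), against 1.29 times (1.15 to 1.44) in control cells without it. With SB431542 the ratio was 3.07 (1.64 to 6.16) in Osr2 cells and 0.993 (0.872 to 1.13) in control cells. The Osr2 libraries thus held more Tgfbr2 per Tgfbr1 than the control libraries of the same treatment, and these intervals do not overlap. After read subtraction the untreated ratios were 9.51 in Osr2 cells and 3.12 in control cells.

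The activin type II receptors changed places. Acvr2a stood at 5.96 times the TPM of Acvr2b (5.00 to 7.15) in Osr2 cells without SB431542, or 13.4 times (10.3 to 17.8) after read subtraction, against 0.405 times (0.369 to 0.446) in control cells without it. With SB431542 the ratio was 0.503 (0.354 to 0.713) in Osr2 cells and 0.409 (0.365 to 0.459) in control cells, and these intervals overlap. Acvr2b was therefore the more abundant of the pair in 3 of 4 libraries, and Acvr2a in the Osr2 library without SB431542. The ratio of Acvr2a to its type I partner Acvr1b was 1.12 (0.738 to 1.71) in Osr2 cells with SB431542 and 2.67 (2.37 to 3.02) without it, against 0.361 (0.323 to 0.403) and 0.401 (0.366 to 0.440) in control cells with and without it.

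**Figure D3:**
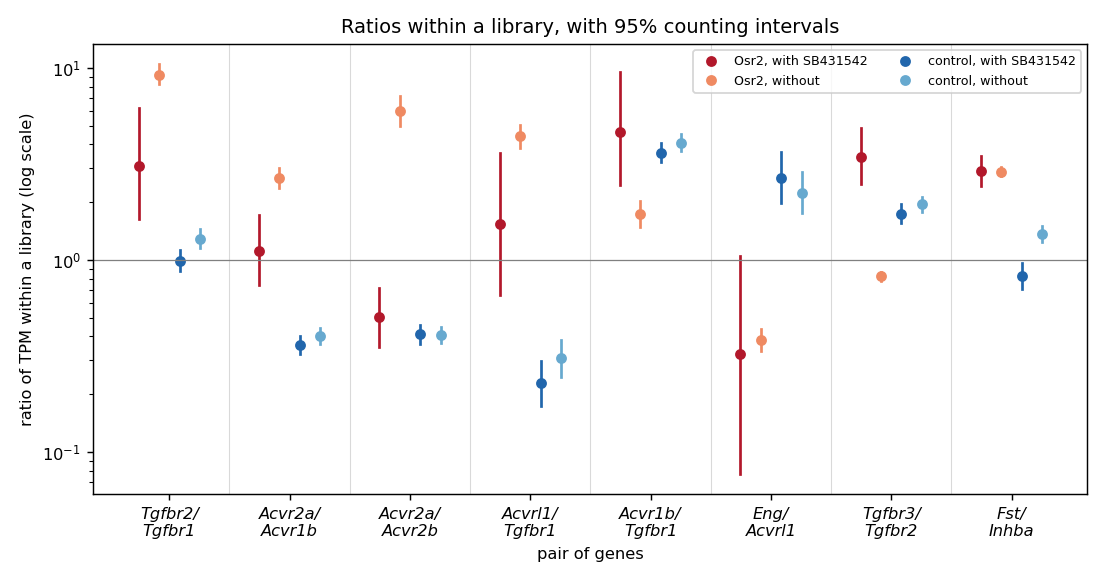
Ratio of the TPM of 2 members within the same library, on a log axis, for 8 pairs; points are single libraries and lines are 95% counting intervals. The ratio of Acvr2a to Acvr2b lies at 5.96 in Osr2 cells without SB431542 and between 0.405 and 0.503 in the other 3 libraries.

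Acvrl1, the type I receptor that SB431542 spares, stood at 4.40 times the TPM of Tgfbr1 (3.85 to 5.03) in Osr2 cells without SB431542, against 0.310 times (0.247 to 0.385) in control cells without it, or 0.811 times (0.526 to 1.23) there after read subtraction. With SB431542 the ratio was 1.53 (0.654 to 3.59) in Osr2 cells and 0.229 (0.173 to 0.299) in control cells. Acvr1b exceeded Tgfbr1 in all 4 libraries, by 4.66 times (2.45 to 9.49) in Osr2 cells with SB431542 and 1.74 times (1.48 to 2.03) without it, against 3.62 times (3.23 to 4.06) and 4.08 times (3.68 to 4.54) in control cells with and without it, or 6.96 times without it after read subtraction. Endoglin stood at 0.324 times the TPM of Acvrl1 (0.0770 to 1.05) in Osr2 cells with SB431542 and 0.383 times (0.335 to 0.437) without it, against 2.68 and 2.23 times in control cells with and without it. After read subtraction the untreated control ratio was 1.46 (0.935 to 2.31), an interval that spans equality. The ratio of Tgfbr3 to Tgfbr2 was 3.45 in Osr2 cells with SB431542 and 0.824 without it, against 1.74 and 1.95 in control cells with and without it.

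Follistatin per activin subunit was nearly the same in both Osr2 libraries. Fst stood at 2.91 times the TPM of Inhba (2.44 to 3.49) with SB431542 and 2.88 times (2.74 to 3.03) without it. In control cells the ratio was 0.827 (0.706 to 0.968) with SB431542 and 1.36 without it, or 1.93 without it after read subtraction. The intervals of both Osr2 libraries lay above those of both control libraries as deposited. Inhba was thus the more abundant of the pair in 1 library, that of control cells with SB431542.

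Put together, the 6 receptors summed, in columns of unequal total, to 8.22 TPM in Osr2 cells with SB431542, 71.0 TPM in Osr2 cells without it, 84.1 TPM in control cells with it and 63.6 TPM in control cells without it. In Osr2 cells without SB431542, Tgfbr2 made up 42.4% of that sum, Acvr2a 21.3% and Acvrl1 20.2%. In control cells without SB431542, Acvr1b made up 33.0% and Acvr2b 32.7%, with Tgfbr2 at 10.4%. The set of the most abundant receptors was therefore a different one in the untreated Osr2 library. With SB431542, Acvr2b was the largest in Osr2 cells at 40.1% and Acvr1b in control cells at 35.0%. Type II receptors exceeded type I receptors in every library, by 2.59 and 2.05 times in Osr2 cells with and without SB431542, against 1.13 and 1.29 times in control cells. These sums, shares and ratios are without read subtraction. After it, untreated control cells held Tgfbr1 at 2.48, Acvr1b 17.3, Acvrl1 2.01, Tgfbr2 7.74, Acvr2a 9.18 and Acvr2b 23.1. In untreated Osr2 cells, relative to the median gene, these were 5.01, 8.03, 22.7, 47.6, 23.1 and 1.72 in that order. The untreated ratios of type II to type I receptors then lie closer together.

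**Figure D4:**
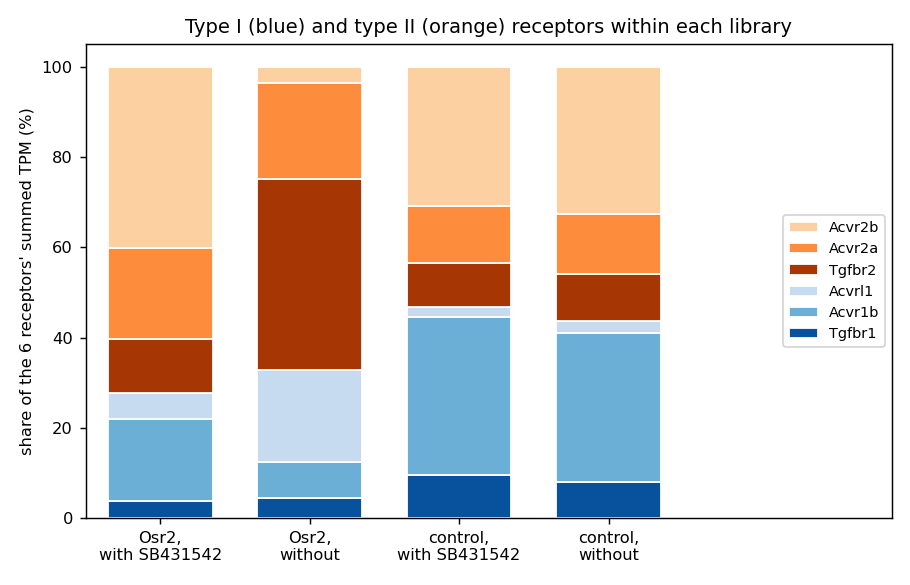
Share of each receptor in the summed TPM of the 6 type I (blue) and type II (orange) receptors, in percent, for the 4 libraries without read subtraction. Tgfbr2 and Acvrl1 take 42.4% and 20.2% in Osr2 cells without SB431542, where Acvr1b and Acvr2b take 7.97% and 3.58%.

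The order of the levels shows the same make-up over all 10 genes. In Osr2 cells with SB431542 it ran from Fst over Inhba, Tgfbr3, Acvr2b, Acvr2a, Acvr1b, Tgfbr2, Acvrl1 and Tgfbr1 to Eng at 0.158 TPM. There, Tgfbr3 and Acvr2b, Acvr2a and Acvr1b, Acvr1b and Tgfbr2, Acvrl1 and Tgfbr1, and Tgfbr1 and Eng did not differ beyond counting error. In Osr2 cells without SB431542 it ran from Fst at 70.5 TPM over Tgfbr2, Tgfbr3, Inhba, Acvr2a, Acvrl1, Acvr1b, Eng and Tgfbr1 to Acvr2b at 2.54 TPM. Here the neighbours Tgfbr3 and Inhba, Acvr2a and Acvrl1, and Acvr1b and Eng did not differ beyond counting error. Fst was thus first in both Osr2 libraries.

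In control cells, without read subtraction, Acvr1b was first, at 29.4 TPM with SB431542 and 21.0 TPM without it, with Acvr2b next and Acvrl1 last. With SB431542 the order between them was Tgfbr3, Acvr2a, Inhba, Tgfbr1, Tgfbr2, Fst and Eng, and without it Tgfbr3, Fst, Inhba, Acvr2a, Tgfbr2, Tgfbr1 and Eng. The neighbours whose counting interval spanned equality were Inhba and Tgfbr1, Tgfbr1 and Tgfbr2, and Tgfbr2 and Fst with SB431542, and Acvr1b and Acvr2b, Tgfbr3 and Fst, and Inhba and Acvr2a without it. Fst thus had rank 8 of 10 with SB431542 and rank 4 without it. After read subtraction Fst was first in control cells without SB431542 too, at 29.1 TPM, ahead of Acvr2b (23.1), Tgfbr3 (18.3) and Acvr1b (17.3). Tgfbr1 (2.48) then stood below Eng (2.94). Without read subtraction, the order of the genes other than Fst varied less between the control libraries. Acvr1b, Acvr2b and Tgfbr3 were the highest of them and Eng and Acvrl1 the lowest in both. Treated reads came to 73.1% of untreated reads in control cells, so this likeness is partly built in if the untreated column holds them.

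The members with the most similar pattern over the 4 libraries were Acvr2a and Tgfbr3, whose centred log2 values differed by at most 0.32 in any library, followed by Acvrl1 and Tgfbr2 at 0.40. Among 7867 genes of mean TPM of at least 5, the nearest to Fst were Dlk1 (largest gap 0.29), Col5a1 (0.31) and Col4a5 (0.37), and 10 genes lay within 0.5 of it in every library. The nearest to Tgfbr2 were Fbln1 (0.07), Mrc2 (0.10) and Trib2 (0.12), with 78 genes within 0.5. For Inhba they were Hspa1b (0.06), Anxa3 (0.09) and Fmnl3 (0.10), with 149 such genes. For Tgfbr1 they were Wrb (0.02), C1galt1c1 (0.03) and Clptm1l (0.04), with 1465 such genes out of 7868. On this scale, without read subtraction, its pattern was thus a common one and that of Fst a rare one. After subtraction Tgfbr1 differed by 0.79 for Osr2 without SB431542 (0.12 before) and by 0.84 for SB431542 in control cells (0.17 before). Likeness was not computed on that scale. With 4 points, such likeness describes these libraries and nothing more.

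Other genes of the pathway give the setting, from lists drawn up with earlier results of these data known. Of all measured genes, 16.6% were higher and 11.4% lower in Osr2 against control cells without SB431542, and 19.9% and 27.9% with it. For SB431542 against none these shares were 16.5% and 26.7% in Osr2 cells. In control cells they were 0% and 0.577%, where a call of higher was not possible. Of 20 TGF-β and Smad3 target genes, 18 were higher in Osr2 cells without SB431542 and 0 lower (median 3.28), with Lox, which crosslinks collagen, at 6.16 and Timp3, which blocks matrix metalloproteases, at 4.89. With SB431542, 14 were higher in Osr2 cells and 2 lower (median 1.83, and −1.51 as deposited), with Ccn2 at 6.09. For SB431542 against none, 2 targets were higher and 14 lower in Osr2 cells (median −1.98), with Postn at −7.77 on 3 reads, and 0 were higher and 5 lower in control cells (median −0.37), with Col3a1 at −1.45. In control cells as deposited their median was 0.06, with 1 lower. After read subtraction it was −1.07 there, with 11 lower and 0 higher, where 6.38% of all measured genes were lower and 10% higher. The direction and size in control cells thus rest on the choice of scale. Relative to the median gene the targets thus had medians below 0 with the inhibitor in both kinds of cell. They stood higher in Osr2 than in control cells on that scale under both treatments.

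Of 16 measured Smads and Smad regulators, 3 were higher and 0 lower in Osr2 cells without SB431542 (median 0.32). Of all measured genes 16.6% and 11.4% were, so the count of higher Smads was near the share over all genes. The inhibitory Smad6 stood at 2.77 and Smad7 at 1.97, where Smad7 was at 0.37 after read subtraction. With SB431542, 11 were higher and 3 lower (median 1.49, and −1.76 as deposited), where 19.9% and 27.9% of all measured genes were. Smad6 was then at 4.71 and Smad7 at 4.53. Set against the same shares, 9 of 16 measured antagonists and receptor modulators were higher and 0 lower without SB431542 (median 1.39). Among them was Pmepa1, which keeps Smads from the receptor, at 3.07. With SB431542, 7 were higher and 3 lower (median 0.50, −1.50 as deposited), with the BMP antagonist Noggin (Nog) at 4.70 on 57 and 14 reads.

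Of 11 measured other ligands and subunits, 4 were higher and 0 lower in Osr2 cells in each comparison with control cells, with medians of 0.84 without SB431542 and 0.64 with it. As deposited 0 were higher and 6 lower with SB431542 (median −1.02), and after read subtraction 3 were higher and 1 lower without it. Over all measured genes, 16.6% were higher and 11.4% lower without SB431542, and 19.9% and 27.9% with it. Bmp4 differed by 2.94 and Tgfb3 by 2.31 without SB431542, and Bmp6 by 3.90 and the activin subunit Inhbb by 2.77 with it. Of 11 other receptors of the family 5 were measured, and 2 were higher and 0 lower without SB431542, Rgma, a BMP co-receptor, at 2.04 and Acvr1, a BMP type I receptor, at 1.62. With SB431542, 3 were higher and 1 lower (median 1.37, and −1.82 as deposited), with Acvr1 at 1.74 (−1.25 as deposited) and Bmpr1a at −1.89 on 11 reads. Of 12 activin and nodal targets 4 were measured, and 1 was higher and 0 lower in Osr2 cells in each of these comparisons. Without SB431542 it was Lefty1, at 1.84. As deposited 0 were higher and 3 lower with SB431542, and after read subtraction 0 were higher. These activin and nodal targets are genes of the early embryo, and most were under 1 TPM here.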

How the data were processed

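The deposited values are TPM as the authors made them: per the series design text, reads were mapped to GRCm38.p6 with STAR and counted per gene with featureCounts 2.0.0. The strand setting of the counting is not given in the sources used here. Of 27304 entries, 26 named as dates and 469 sharing a symbol were left out. A second table, whose 4 columns match no sample, was not used. Whole reads were recovered from the 4 TPM values of an entry together, within 0.001 of a whole number, for 18784 of 18787 entries above 0. The recovered lengths equalled the exon lengths of GENCODE M21 in 92.6% of 18118 entries and equalled or divided them in 99.96%; reads were raised to the full length where they divided it. On simulated data 96.2% of 17797 entries were recovered exactly and 100% up to a common factor. On the same data, 96.5% of 200 genes changed 8-fold up or down were called in Osr2 against control without SB431542. The simulated reads held counting error only, and changes near the limit for a call were not simulated.

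For scaling, the TPM of 7867 genes averaging 5 or more was set against control cells without SB431542, and each column was divided by the median of these ratios; differences are of log2(TPM + 1). With subtraction, TPM was rebuilt to the deposited total of that column. Intervals are exact binomial at 95%. Positions are from GENCODE M21 (GRCm38). Exons of other genes overlap those of Acvr2a (7.84% of exon bases), Tgfbr3 (4.54%), Acvrl1 (2.98%), Fst (2.51%) and Eng (1.51%). Some named genes are not reported here. The members, lists and scales were chosen with earlier results of these data known. All 10 members are named, of each list up to 2 genes with the largest difference and at least 20 reads in 1 of the libraries compared, and 3 nearest genes for each of 4 members. Protein sequences were not used here. Python 3.11.15, numpy 2.4.6, pandas 2.3.3 and scipy 1.17.1 were used.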

Additional observations from a re-analysis of the deposited data

Results flagged for a closer look

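For 3 members the SB431542 difference had opposite signs in the 2 kinds of cell, on the scale relative to the median gene. With 1 library per group this was not tested. For Acvr2b the difference was 2.38 in Osr2 cells and −0.14 in control cells, 2.52 apart, and on TPM as deposited it was 0.28 and 0.31. For Eng it was −2.19 in Osr2 cells, on 4 treated reads, and 0.02 in control cells, −2.21 apart. For Tgfbr1 it was −0.88 in Osr2 cells, on 13 treated reads, and 0.17 in control cells, −1.04 apart. The control values of these 3 members lie near 0, so the opposite signs rest on small values. Tgfbr2 (−2.40 apart) and Acvrl1 (−2.22 apart) differed between the kinds of cell at least as much as Eng, without opposite signs. After read subtraction the differences in Osr2 and control cells were 3.16 and −0.44 for Acvr2b, −2.20 and 0.09 for Eng, and −0.89 and 0.84 for Tgfbr1. Whether these values are linked to the genes at 0 reads in the Osr2 library with SB431542 was not tested.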

How the results depend on the processing

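No paired analysis was possible because each group holds 1 library, and no library could be left out. On TPM as deposited, 4 members were higher with Osr2 without SB431542 in place of 7. With SB431542, 0 were higher in place of 4 and 7 lower in place of 0, and of the called members Acvrl1 (−0.94), Tgfbr3 (−1.79) and Inhba (−0.75) changed sign, as did, among those not called, Tgfbr2 (−2.20), Acvr2a (−2.13) and Acvr2b (−2.65). For SB431542 on that scale, 0 members were lower in control cells in place of 1, and in Osr2 cells 0 were higher in place of 1 and 9 lower in place of 3. The medians of other receptors (−1.82), Smads (−1.76), TGF-β targets (−1.51), other ligands (−1.02), antagonists (−1.50) and activin and nodal targets (−1.06) in Osr2 against control with SB431542, and of Smads for SB431542 in Osr2 cells (−1.02), also changed sign there, and other medians that did were within 0.5 of 0 on both scales; the shift of the median gene makes this difference by construction. After read subtraction 2 members were lower with SB431542 in control cells in place of 1. Ratios then lay outside the counting interval of the unsubtracted ratio for 7 pairs in untreated control cells. These were Tgfbr2/Tgfbr1 (3.12), Acvr2a/Acvr1b (0.532), Acvrl1/Tgfbr1 (0.811), Acvr1b/Tgfbr1 (6.96), Eng/Acvrl1 (1.46), Tgfbr3/Tgfbr2 (2.36) and Fst/Inhba (1.93). In untreated Osr2 cells this held for Acvr2a/Acvr2b (13.4). The intervals before and after subtraction overlapped for Eng/Acvrl1 (1.75 to 2.87 and 0.935 to 2.31) and Tgfbr3/Tgfbr2 (1.78 to 2.14 and 2.03 to 2.75). The cause was not tested. With a pseudocount of 5, 1 member was lower with Osr2 without SB431542 and 0 with SB431542 in control cells. With a pseudocount of 0.1, or with the median taken over genes averaging 50 TPM or more, 2 members (in place of 0) were lower with Osr2 with SB431542. With a pseudocount of 5 or that median, 3 were higher there in place of 4. With a size rule of 1.5, 1 was lower with Osr2 without SB431542, 2 were higher with it, and 0 were lower with SB431542 in control cells. The filters on low values changed no count of members. Depth limits most the Osr2 library with SB431542, where Eng had 4 reads and Tgfbr1 and Acvrl1 13 each.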

Other observations

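Some relatives of these genes, picked after their values were seen, add to the picture. Inhbb, which encodes the βB activin subunit, stood at 12.1 TPM (321 reads) in Osr2 cells with SB431542 and 21.4 TPM (1278 reads) without it, against 19.1 TPM (644 reads) and 24.2 TPM (1502 reads) in control cells with and without it. Relative to the median gene it differed by 0.60 for Osr2 without SB431542 and by 2.77 with it, and by 1.40 for SB431542 in Osr2 cells and −0.77 in control cells. Fstl3, a second antagonist of activin, stood at 1.57 TPM (24 reads) and 10.6 TPM (364 reads) in Osr2 cells with and without SB431542, against 3.50 TPM (68 reads) and 2.55 TPM (91 reads) in control cells, and differed by 2.45 for Osr2 without SB431542 and 1.98 with it. Bmpr2, the BMP type II receptor, differed by 0.67 and 1.69 in the same comparisons. Acvr1c, the other type I receptor that SB431542 inhibits, had 0 reads in 3 libraries and 3 reads in Osr2 cells without SB431542.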
